A study of Macaca mulatta and Mus musculus and Rattus norvegicus with 12 samples.

Results

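The genes described here are 44 genes of the cell cycle and of DNA replication, followed in bone from the skull vault (calvaria) and from the shin (tibia) of mouse, rat and rhesus macaque. They were found by symbol, from a list of names, out of 22339 symbols with reads in mouse, 19234 in rat and 18894 in macaque. All 44 had a row in the mouse and rat tables. In macaque 37 were found under their printed symbol, and the other 7 (CCNB2, BUB1, BIRC5, CDT1, GINS1, PRIM1 and NUSAP1) stood under numbered LOC symbols that the RefSeq gene table names.

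The study compared poly(A)+ RNA of osteocyte-enriched bone from a skull site and a limb site in 12 libraries. Mouse calvaria (M4 and M8) and mouse tibia (M5 and M7) came from C57BL6 animals aged 4 months, with 3 animals pooled in each library. Rat calvaria (R1) and rat tibia (R3) came from Wistar animals aged 6 months, with 2 animals pooled in each library. Macaque calvaria (G1, G3 and T1) and macaque tibia (G2, G4 and T2) came from 1 animal per library, aged 4 to 6 months by the labels. The methods text gives the macaque ages in years instead. It also describes the long bone and skull libraries as pairs, which the labels do not name. All animals were female per the methods text and no treatment is named, and bone was stripped of periosteum and digested briefly with collagenase in every group. Marrow was spun out of the rodent tibias, whereas rodent calvaria was cut clear of sutures and marrow spaces. Macaque bone was sawn out, and no step that removes marrow is described for it. No sort by a marker was made, so each library also holds the other cells left in the bone.

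Cells copy their genome once per division. Origins are licensed in G1 by ORC, CDC6 and CDT1, which load the MCM2 to MCM7 helicase, and in S phase the helicase runs with the GINS complex ahead of the polymerases, the PCNA sliding clamp and the ligase. Cyclin A and cyclin B with CDK1 then drive entry into mitosis, where the Aurora and Polo kinases, the spindle proteins and the centromere proteins divide the chromosomes under the watch of the BUB checkpoint proteins. Osteocytes, the cells embedded in bone matrix, are terminally differentiated and do not divide, while red cell and white cell precursors of the marrow divide often.

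Reads on named genes numbered between 13934813 and 16826535 per mouse library, 14255423 in R1 and 12233256 in R3, and between 7951585 and 10342459 per macaque library. Levels are CPM (reads of a gene relative to the library total), scaled by TMM factors in mouse and macaque, and differences are log2 of calvaria over tibia. A gene was called where its false discovery rate (Benjamini-Hochberg adjusted p) was below 0.2 and its fold above 1.1, the limits of the study, in edgeR's quasi-likelihood test over the whole table of the species. Of 6 osteocyte markers, all had reads in mouse and macaque and 5 had reads in rat, where FGF23 was at 0. Their summed level was lower in calvaria, at 1041 to 1847 CPM against 7622 to 10369 in mouse tibia, and at 4917 to 5779 against 7777 to 17530 in macaque tibia. In rat it was 500.2 CPM in calvaria against 7242 in tibia. By gene, 4 of the 6 (DMP1, MEPE, PHEX and SOST) were called higher in mouse tibia. In macaque 2 of the 6, MEPE and SOST, were called higher in tibia, and MEPE held most of the reads of the sum. DMP1 and PHEX were not called there, at log2 differences of -0.21 and 0.21, and no marker was called higher in calvaria in either species.

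In macaque, 37 of the 44 genes were called and all 37 were higher in calvaria. The background was 10.3% of all 18894 symbols called higher in calvaria and 9.43% called higher in tibia. The median log2 difference of the 43 genes with more than 3 reads in some library was 1.56, a fold of 2.96, beside -0.0019 for all symbols above the same floor. All 43 had a positive difference, where 49.9% of all symbols above that floor did. In 38 of the 44 genes every calvaria library lay above every tibia library, and in none did every tibia library lie above, where 12.8% and 12.1% of all symbols did so. Every calvaria library was compared with every tibia library in turn, and the calvaria library was the higher for 40 to 43 of the 43 genes. The letters G and T of the labels, which were deposited in separate tables, gave differences of the same sign. The median log2 of T1 over T2 was 1.42, that of G1 over G2 was 1.59 and that of G3 over G4 was 1.48.

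**Figure D1:**
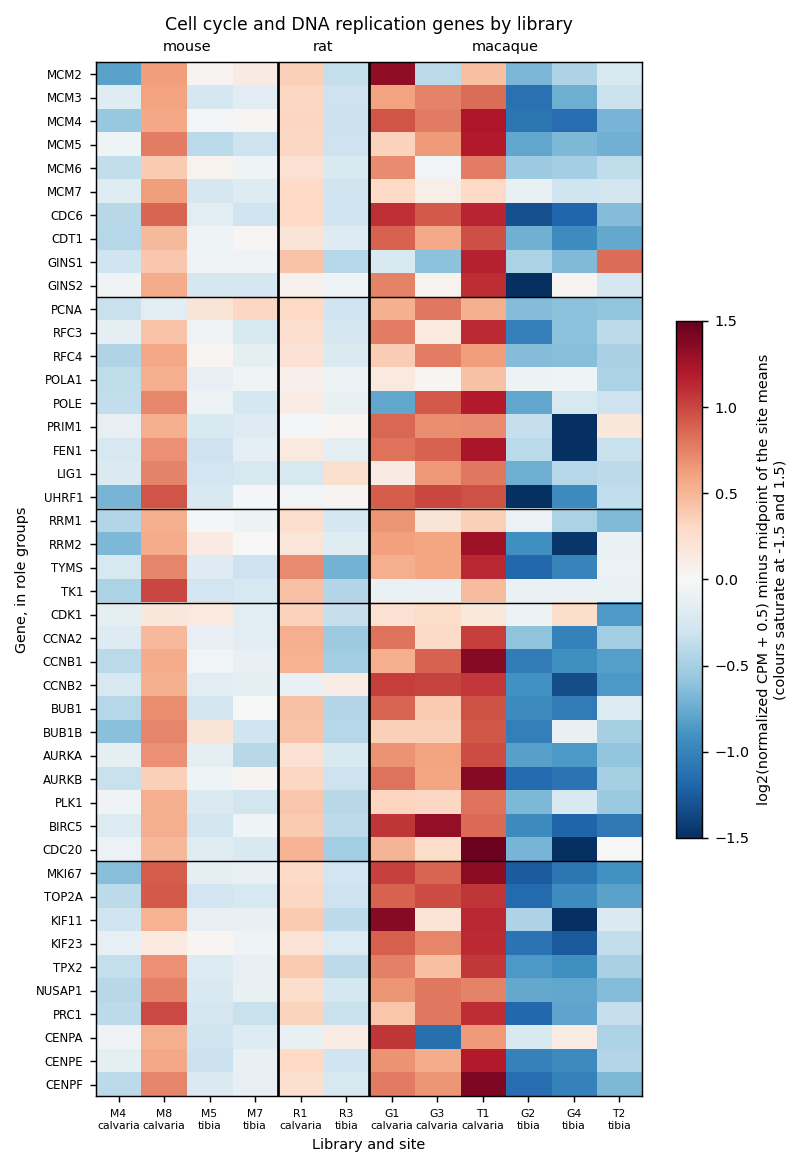
Each row is a gene and each column a library, with role groups parted by thin lines and species by thick lines. Colour gives log2(CPM + 0.5) minus the midpoint of the means at the 2 sites within the species, so red lies above the midpoint and blue below. The 3 macaque calvaria columns are red and the 3 tibia columns blue for nearly all genes, the R1 column is paler red, and among the mouse columns M8 alone is red throughout most of the rows.

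Among the 10 genes of origin licensing and the helicase, 8 were called higher in macaque calvaria. MCM4, a subunit of the replicative helicase, was at 129.1, 114.7 and 155.1 CPM in G1, G3 and T1 and at 30.9, 30.0 and 41.2 CPM in G2, G4 and T2. All 3 calvaria libraries were well above the tibia libraries, and the log2 difference was 1.96 ± 0.20 (SE, n = 3 per site, edgeR adjusted p = 2.01e-09), a fold of 3.90. CDC6, the ATPase that loads the helicase with CDT1, was at 50.5, 44.4 and 52.0 CPM in calvaria and at 9.07, 9.93 and 14.7 CPM in tibia. Again the sites did not overlap, with a log2 difference of 2.12 ± 0.24 (SE, n = 3 per site, edgeR adjusted p = 2.20e-08). MCM3, MCM5, MCM6 and the GINS subunit GINS2 were also called, with log2 differences of 1.44, 1.57, 1.01 and 1.35. CDT1, the licensing factor, was called on few reads, with 14, 10 and 15 in calvaria and 2, 1 and 2 in tibia. MCM2 had 3 to 20 reads in calvaria and 2 to 5 in tibia and was not called (edgeR adjusted p = 0.293), and GINS1 was not called either (edgeR adjusted p = 0.861).

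MCM7, a further helicase subunit, had the highest mean level per kilobase of exon in its role group over the 12 libraries, at 76.2 CPM per kilobase, when its 2 macaque rows were summed. In macaque it was at 317.5, 273.4 and 316.3 CPM in calvaria and at 238.3, 208.5 and 213.4 CPM in tibia, a log2 difference of 0.46 ± 0.18 (SE, n = 3 per site, edgeR adjusted p = 0.0980). Of those 2 rows, the row with most of the reads, between 1768 and 2211 per library, is described in the table as a cyclin-L1-like gene. The row described as the MCM subunit itself had 422, 163 and 769 reads in G1, G3 and T1 and 151, 59 and 292 in G2, G4 and T2. T2 lay above G3 in that row, in raw reads and also relative to the library totals, so the sites overlapped. Taken alone, an alternative chosen after the data were seen, that row gave a log2 difference of 1.67 ± 0.35 (SE, n = 3 per site, edgeR adjusted p = 0.000776), and the count of called genes was 37 as before. With that row alone the mean level of MCM7 was 27.5 CPM per kilobase, below MCM3 at 32.5 and MCM6 at 28.2. With both rows summed, MCM7 was no longer called without G1, G2, G4 or T1 in turn, at edgeR adjusted p of 0.243, 0.2003, 0.284 and 0.249.

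Of the 9 genes of the polymerases and the fork, 7 were called higher in macaque calvaria. PCNA, the sliding clamp that holds polymerases on DNA, led this group in level per kilobase. It was at 76.4, 91.5 and 76.2 CPM in G1, G3 and T1 and at 33.5, 34.2 and 34.9 CPM in G2, G4 and T2. The tibia libraries were nearly equal and all lay below calvaria, and the log2 difference was 1.25 ± 0.20 (SE, n = 3 per site, edgeR adjusted p = 1.11e-05). The clamp loader subunits RFC3 and RFC4 differed by 1.49 and 1.20 on the log2 scale, the flap endonuclease FEN1 by 1.79, the DNA ligase LIG1 by 1.07, the primase subunit PRIM1 by 1.29 and UHRF1, which carries DNA methylation through replication, by 1.86. The polymerase alpha subunit POLA1 was not called at a log2 difference of 0.41 ± 0.22 (SE, n = 3 per site, edgeR adjusted p = 0.277). With the assumed pairs of bones as a block it was called (edgeR adjusted p = 0.142). The polymerase epsilon subunit POLE had 0, 9 and 12 reads in calvaria and 0, 2 and 2 in tibia and was not called.

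The 4 genes of nucleotide supply were called in 3 cases. RRM2, the regulated subunit of ribonucleotide reductase, was at 42.8, 42.3 and 68.0 CPM in macaque calvaria and at 14.4, 9.82 and 25.8 CPM in tibia. T1 and T2 were the highest libraries of their sites, which did not overlap, and the log2 difference was 1.61 ± 0.27 (SE, n = 3 per site, edgeR adjusted p = 2.62e-05). RRM1, the other reductase subunit, differed by 0.81 and TYMS, thymidylate synthase, by 1.46. TK1, thymidine kinase, had 0, 0 and 2 reads in calvaria and none in tibia, so its site difference was not detectable at this depth.

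Among the 11 cyclins, mitotic kinases and checkpoint genes, 10 were called higher in macaque calvaria, and the exception was the gene of this group with the highest level per kilobase. CDK1, the kinase of mitotic entry, was at 83.0, 85.5 and 78.6 CPM in calvaria and at 66.7, 84.9 and 38.9 CPM in tibia. G4 lay within the range of the calvaria libraries, and the log2 difference was 0.38 ± 0.21 (SE, n = 3 per site, edgeR adjusted p = 0.320). With the assumed pairs as a block the difference was 0.44 and CDK1 was called (edgeR adjusted p = 0.0605), which brought the count of called genes to 39. Its cyclin partners CCNA2, CCNB1 and CCNB2 differed by 1.72, 1.97 and 2.14 on the log2 scale and were called. So were the survivin gene BIRC5 at 2.23 and the Aurora kinases AURKA and AURKB at 1.53 and 1.92. The Polo kinase PLK1 was called at 1.00, the checkpoint kinases BUB1 and BUB1B at 1.498 and 1.18, and CDC20, the activator of the anaphase-promoting complex, at 1.66.

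The 10 genes of the spindle, chromosomes and centromere held the 2 smallest p-values, and 9 were called higher in macaque calvaria. MKI67, which codes for the proliferation antigen Ki-67 on mitotic chromosomes, was at 635.7, 574.5 and 794.8 CPM in G1, G3 and T1 and at 131.1, 146.7 and 166.9 CPM in G2, G4 and T2. The lowest calvaria library was far above the highest tibia library, and the log2 difference was 2.17 ± 0.19 (SE, n = 3 per site, edgeR adjusted p = 8.23e-11), a fold of 4.51. TOP2A, the topoisomerase that untangles sister chromosomes, was at 391.4, 418.9 and 445.9 CPM in calvaria and at 94.0, 109.8 and 121.3 CPM in tibia. The groups were tight and apart, with a log2 difference of 1.95 ± 0.19 (SE, n = 3 per site, edgeR adjusted p = 4.20e-10). CENPF, a kinetochore protein, was at 343.5, 316.2 and 525.9 CPM in calvaria and at 90.1, 98.3 and 124.4 CPM in tibia. T1 was the highest library and the sites did not overlap, with a log2 difference of 1.92 ± 0.20 (SE, n = 3 per site, edgeR adjusted p = 4.00e-09). The spindle motors and bundlers KIF11, KIF23, TPX2, NUSAP1 and PRC1 and the kinetochore motor CENPE were called at log2 differences between 1.56 and 2.08. CENPA, the centromeric histone, had 15, 0 and 10 reads in calvaria and 4, 6 and 3 in tibia and was not called (edgeR adjusted p = 0.613).

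**Figure D2:**
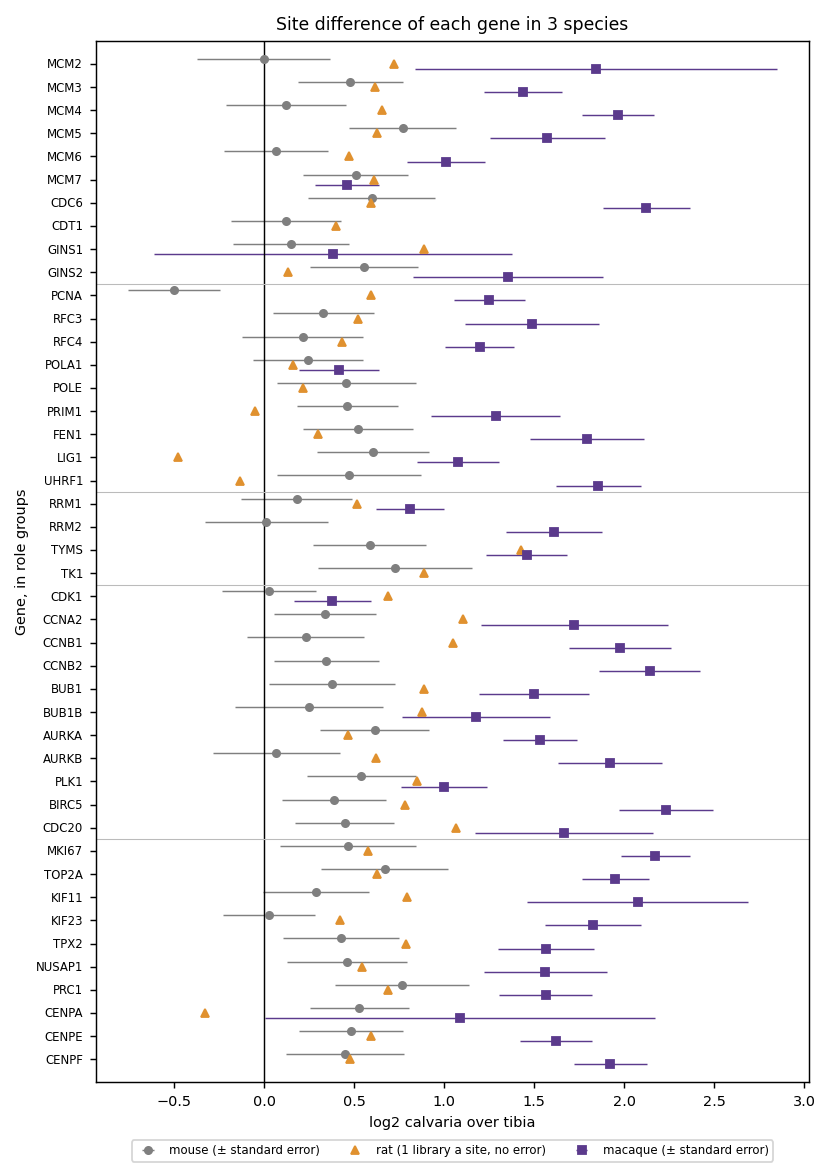
The horizontal axis gives the log2 difference of calvaria over tibia for each gene, with standard errors in mouse (circles) and macaque (squares) and no error in rat (triangles, 1 library a site). Genes whose reads were at or under 3 in every library of a site are not drawn for that species. Macaque squares centre near the median of 1.56, rat triangles near 0.601 and mouse circles near 0.436.

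T1 was the highest of the 6 macaque libraries for 31 of 43 genes, and G2 was the lowest for 21. Without T1 the count of called genes was 33 and without T2 it was 37, and the median log2 difference was 1.39 and 1.83. The calls of 32 of the 37 genes were made in all 6 fits that left out 1 library, and the other 5 were MCM7, GINS2, PRIM1, BUB1B and CDC20. Under library sizes alone the median of all macaque symbols moved to -0.20, and 36 genes were called.

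Several marker lists of marrow cells moved with these genes in macaque, and others did not. All 6 erythroid markers reported here with a row (ALAS2, EPB42, SLC4A1, KLF1, RHAG and AHSP) were called higher in calvaria, with log2 differences between 2.13 and 2.57. Their summed level was 1402 to 1889 CPM in calvaria and 263.5 to 437.3 CPM in tibia, and none was at 0 in any library. All 5 neutrophil markers were called higher in calvaria, summing to 35507 to 58527 CPM against 6679 to 13481 CPM. Of the myeloid precursor markers, 2 of 3 with a row were called higher, MPO and CTSG, with a list sum of 1849 to 3476 CPM against 603.4 to 1097 CPM. Of the megakaryocyte markers, 3 of 5 with reads were called higher, summing to 242.3 to 355.3 CPM against 14.6 to 30.5 CPM, and GP1BB was at 0 in all 6 libraries. The B-lineage list had 4 of 6 called higher, but its sum did not part the sites, at 327.8 to 408.4 CPM against 342.0 to 363.6 CPM, with CD79B at 0. Macrophage markers had 1 of 4 called higher, with sums that overlapped, at 210.6 to 403.2 CPM against 204.4 to 300.4 CPM. None of the 3 T-cell markers with reads was called. Osteoclast markers had 3 of 5 called higher, and their sums overlapped too, at 1302 to 1614 CPM against 413.4 to 1558 CPM. The 44 genes themselves summed to 3316 to 4266 CPM in calvaria and 1256 to 1455 CPM in tibia. The part of marrow cells in the difference was not tested, and in bulk bone fewer cells of a type and less RNA per cell cannot be told apart.

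**Figure D3:**
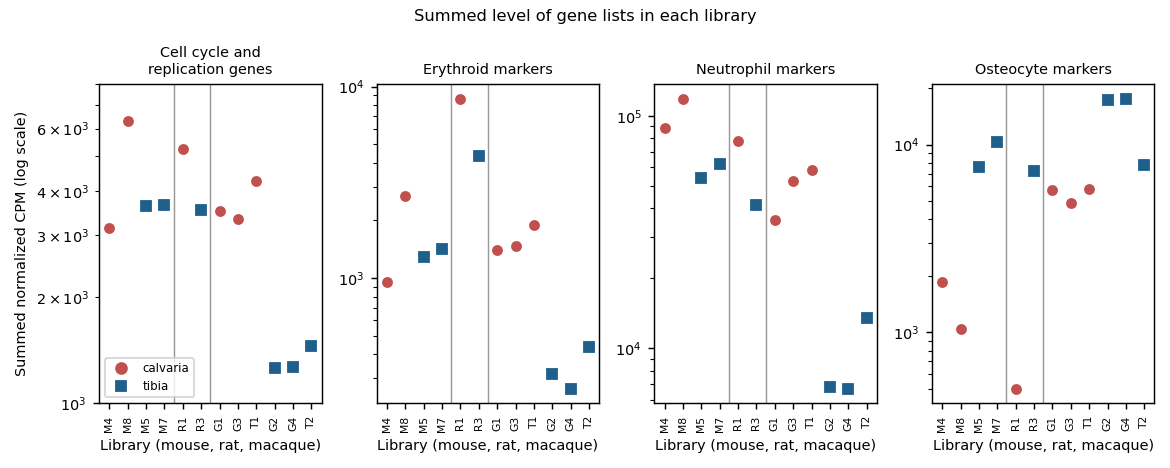
Each panel gives the summed CPM of a gene list in each library on a log axis, with calvaria as circles and tibia as squares, and vertical lines part mouse, rat and macaque. In macaque the 44 genes, the erythroid markers and the neutrophil markers are all higher in the 3 calvaria libraries, while in mouse M8 is highest and M4 lowest for both the 44 genes and the erythroid markers.

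In mouse none of the 44 genes was called by edgeR, against a background of 0.712% of 22339 symbols called higher in calvaria and 1.57% called higher in tibia. DESeq2 called none either, and 1 gene, the helicase subunit MCM5, had an unadjusted p under 0.05. The difference was positive for 42 of 44 genes, where 53.9% of all symbols above the floor were positive. The median log2 difference was 0.436, a fold of 1.35, beside 0.047 for all symbols above the floor. In 9 genes (MCM5, MCM7, GINS2, PRIM1, LIG1, AURKA, PLK1, CDC20 and CENPA) both calvaria libraries lay above both tibia libraries, where 17.3% of all symbols did so. PCNA alone had both tibia libraries above, where 18.4% of all symbols did so.

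The mouse calvaria libraries did not behave alike. M8 was above both tibia libraries for 43 of 44 genes and above M4 for all 44, and M4 was below both tibia libraries for 28. Of the 16631 genes with reads in all 4 mouse libraries, 43.1% had M8 above both tibia libraries and 39.4% had M4 below both. The median log2 of M8 over M4 was 0.923 for the 44 genes, beside -0.00062 over those 16631 genes. The tibia libraries were close, with a median log2 of M5 over M7 of -0.036. MKI67 was at 354.5 CPM in M4, 1032 in M8, 496.3 in M5 and 508.9 in M7, so the tibia libraries lay between the calvaria libraries. Its log2 difference was 0.46 ± 0.38 (SE, n = 2 per site, edgeR adjusted p = 0.871).

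**Figure D4:**
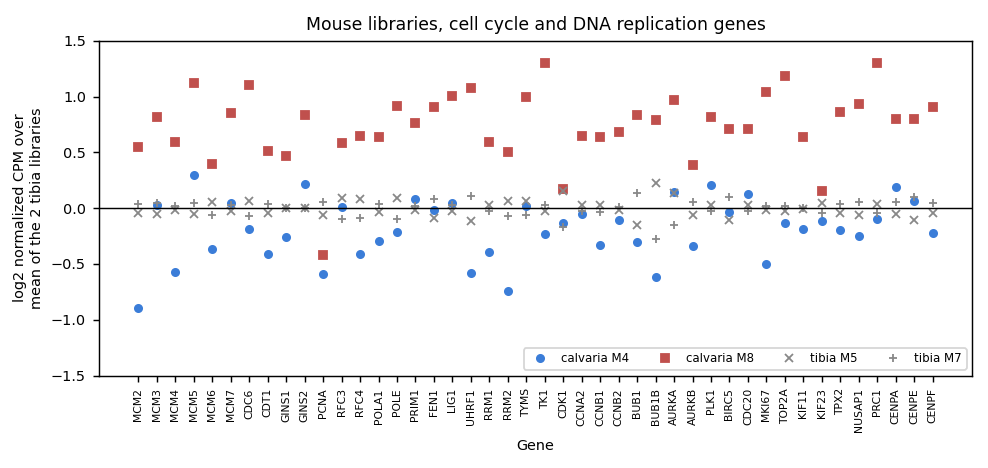
The vertical axis gives log2 of the CPM in each mouse library over the mean of the 2 tibia libraries, for each of the 44 genes along the horizontal axis. M8 (squares) lies above the tibia libraries for 43 genes, M4 (circles) lies below both for 28, and PCNA lies below in both calvaria libraries. Of 16631 genes with reads in all 4 mouse libraries, 43.1% had M8 above both tibia libraries and 39.4% had M4 below both.

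RRM2 showed the same spread, at 150.7 CPM in M4 and 356.5 in M8 against 263.5 in M5 and 239.8 in M7. TOP2A was at 194.9 CPM in M4 and 486.0 in M8, and at 211.0 and 217.6 in M5 and M7. MCM4 was at 39.9 CPM in M4 and 89.4 in M8, with 58.6 and 60.1 in tibia. For each of these genes M4 was the lowest mouse library and M8 the highest. CDC6 was at 45.0 CPM in M4 and 110.1 in M8 against 53.7 and 48.8 in tibia, and CENPF at 132.7 and 290.6 against 150.5 and 160.0. The sites overlapped for both.

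MCM7 was at 84.1 CPM in M4 and 147.5 in M8 against 79.9 in M5 and 83.1 in M7, so the sites barely missed each other. CDK1 was at 156.0 CPM in M4 and 193.0 in M8 against 190.2 in M5 and 152.5 in M7, with no separation. PCNA was at 34.8 and 39.2 CPM in M4 and M8 and at 50.3 and 54.6 CPM in M5 and M7. Here both calvaria libraries were low, at a log2 difference of -0.50 ± 0.25 (SE, n = 2 per site, edgeR adjusted p = 0.680).

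Without M4, 41 genes were called, 40 higher in calvaria and 1 higher in tibia. That fit called 16.2% of 21689 symbols higher in calvaria and 18.2% higher in tibia. Without M8, 10 were called and all 10 were higher in tibia, with a median log2 difference of -0.19, where 8.65% of 21732 symbols were called higher in tibia and 8.91% higher in calvaria. These fits set 1 calvaria library against 2 tibia libraries and assume that the lone library varies like the others. The summed erythroid markers were 949.6 CPM in M4, 2666 in M8, 1281 in M5 and 1420 in M7, and the 44 genes summed to 3127, 6314, 3609 and 3646 CPM. M8 was highest and M4 lowest in both sums. The myeloid precursor markers summed to 2139 CPM in M4 and 3627 in M8 against 1723 to 2014 in tibia, and the neutrophil markers to 88701 and 118116 CPM against 53765 to 61856. The lists of bone cells and muscle went the other way. The bone cell and muscle lists were higher in M4. Osteoblast markers summed to 49259 CPM in M4 and 22029 in M8, and osteoclast markers to 3807 and 2298. Osteocyte markers summed to 1847 and 1041, and skeletal muscle markers to 1291 and 562.1. The part of any of these cells in the spread between M4 and M8 was not tested.

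Rat had 1 library per site, so its ratios describe these libraries and carry no p-value. No member passed a log2 ratio of 2 in either direction, where 1.55% of all rat symbols passed it higher in calvaria and 8.14% higher in tibia. Of the 42 genes with more than 3 reads in some library, 38 had a ratio over 0, where 32.9% of all symbols above that floor did. Their median log2 ratio was 0.601, a fold of 1.52, beside -0.302 for all symbols above the floor. The 4 genes past a log2 ratio of 1 were CCNA2 at 1.101, CCNB1 at 1.05, CDC20 at 1.07 and TYMS at 1.43, all higher in calvaria, where 6.8% of 19234 symbols passed it higher in calvaria and 24.8% higher in tibia. MKI67 was at 875.7 CPM in R1 and 587.3 in R3, TOP2A at 170.0 and 109.9, and MCM4 at 185.4 and 117.9.

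Below 0 in rat were LIG1 at -0.48, CENPA at -0.33, UHRF1 at -0.13 and PRIM1 at -0.050. Of these, UHRF1 rested on 16 and 15 reads and CENPA on 12 and 13. RRM2 had 2 and 0 reads and CCNB2 had 2 and 3, so no ratio is given for either. The mouse libraries held at least 2355 reads of RRM2 each, and the rat levels of these genes are given only as the table lists them. PCNA was at 275.6 CPM in R1 and 182.5 in R3, a log2 ratio of 0.59. The erythroid markers summed to 8627 CPM in R1 and 4340 in R3, and the neutrophil markers to 78104 and 41328 CPM. Both sums were higher in calvaria. The myeloid precursor markers were level, at 2073 and 2092 CPM, while the B-lineage markers were at 309.4 in R1 and 444.7 in R3 and the skeletal muscle markers at 6.80 and 409.9. The part of these cells in the ratios was not tested.

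The difference between the species was tested as a species by site interaction over the 10 mouse and macaque libraries. Of the 44 genes 13 were called at a false discovery rate under 0.2, all with the larger calvaria over tibia difference in macaque, where 3.35% of 11565 symbols were called in that direction and 1.54% in the other. PCNA had the smallest adjusted p. Its site difference was 1.77 ± 0.26 higher in macaque than in mouse on the log2 scale (SE, edgeR adjusted p = 0.0132), since it was positive in macaque and negative in mouse. BIRC5 differed by 1.86 ± 0.35 (SE, edgeR adjusted p = 0.0436), and the other 11 called genes were MCM4, CDC6, CDT1, CCNA2, CCNB1, CCNB2, AURKB, MKI67, TOP2A, KIF23 and CENPF. The count moved with the library left out, and so did the share of all symbols called in the same direction. It was 33 without M8 (7.01% of symbols), 22 without T2 (6.17%), 12 without M4 (5.76%), 2 without M5 (0.38%) and 1 without M7 (0.355%). It was 9 without G3, 7 without G1 and 6 without each of G2, G4 and T1, beside 1.28% to 1.99% of symbols. Several marker lists, of marrow cells and of other cells, showed the same direction. The median excess of macaque over mouse was 1.17 for the 44 genes. It was 1.98 for 4 erythroid markers (2 called), 1.73 for 5 neutrophil markers (3 called) and 3.604 for 5 megakaryocyte markers (3 called). Osteocyte markers were also positive, at 1.00 for 6 markers (2 called). So were 3 chondrocyte markers at 3.52 (2 called) and 4 endothelial markers at 0.679 (1 called). Macrophage markers were at -0.216 and skeletal muscle markers at -2.51, with none called. The part of any of these cells in the interaction was not tested. Mouse libraries were all sequenced on lane 3 and macaque libraries on lane 4, so species, lane and genome annotation cannot be told apart.

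Other genes of the pathway were counted from lists. Of all 18894 macaque symbols, 10.3% were called higher in calvaria and 9.43% higher in tibia. Of 18 G1 cyclins, kinases, E2F and RB genes, 10 were called higher in macaque calvaria and none higher in tibia. E2F7, a repressor of E2F targets made in S phase, differed by 2.90 ± 0.39 (SE, n = 3 per site, edgeR adjusted p = 5.69e-07). CDK4, a kinase of cyclin D, was not called at a log2 difference of 0.059. Of 33 other replication genes with reads, 20 were called higher, led by the fork checkpoint mediator CLSPN at 2.08. Of 55 other mitotic genes 46 were called higher, led by the kinetochore gene NUF2 at 2.29, with a list median of 1.70. No gene of these 3 lists was called higher in tibia.

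The DREAM and MMB complexes repress and then switch on cell cycle genes. Of the 11 genes of this list, 5 were called higher in macaque calvaria, beside 10.3% of all symbols. Higher in tibia was 1 gene, beside 9.43% of all symbols. FOXM1, the activator of mitotic genes, differed by 1.98 and the subunit LIN37 by -0.56. Of 9 CDK inhibitors and antiproliferative genes with reads, 3 were called higher in calvaria and 2 higher in tibia, beside the same shares of all symbols. CDKN2D, an inhibitor of CDK4 and CDK6, differed by 1.60 and the antiproliferative gene TOB1 by -0.70. In mouse no gene of these 5 lists was called by edgeR in either direction. Of all mouse symbols, 0.712% were called higher in calvaria and 1.57% higher in tibia.

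On GRCm38, Mki67 lies at chr7:135689784-135716361 and Top2a at chr11:98992943-99024189, both on the minus strand, Mcm4 at chr16:15623897-15637400 on the minus strand, and Cdc6 at chr11:98907801-98923940 on the plus strand. Cenpf lies at chr1:189640606-189688086, Pcna at chr2:132249162-132253314, Mcm7 at chr5:138164583-138172422 and Cdk1 at chr10:69335146-69352938, all on the minus strand, and Rrm2 at chr12:24708241-24714146 on the plus strand. The values count reads over the exons of each gene. Reads were counted without strand, and in the GENCODE vM21 annotation 84.2% of the exonic bases of Fen1 and 67.3% of those of Gins2 are shared with other genes. The authors counted on other gene models (the exonic length in their table is 1038 bases for GINS2, against 4097 here), so how far the counted exons overlap is not known and the mouse values of FEN1 and GINS2 may include reads of neighbours. For the other members the shared part in this annotation was at most 12.7%.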

How the data were processed

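Poly(A)+ RNA libraries of bone were aligned by the authors with HISAT2 to mm10, rn6 and MacaM, while the submitters' processing notes list BWA 0.7.10-r789 and edgeR 3.16.5. The authors counted reads per gene with HTSeq on merged exons without strand, and deposited these raw counts without filter. The authors also deposited a normalized signal per library, which was not used, and exonic lengths. Rows naming no gene held 0.0026% to 0.0663% of reads and were dropped. Rows sharing an upper-case symbol were summed. In macaque 17111 of 29600 rows had LOC symbols, and 5939 took a unique symbol from RefSeq (names only, since its assembly differs).

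Mouse and macaque were fitted separately over symbols with a read in some library in edgeR 4.0.16 (R 4.3.3) with TMM, the quasi-likelihood test and Benjamini-Hochberg adjustment, and DESeq2 1.42.0 was an alternative. The standard error is the log2 difference over the square root of F. No fold is given where both sites had 3 reads or fewer in every library, nor for POLE and CDT1, whose tibia libraries were at or under 3. Rat ratios used 1 added read and library sizes. The fits were also run on simulated data with less spread between libraries than was fitted here. That check therefore does not show how the tests perform on these libraries.

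Values in every library are given for the member of each role group with the highest CPM per kilobase, and for the 5 called members with the smallest p-values in each species, of which mouse had none. Pathway lists name the called gene with the smallest p per direction, and CDK4 was named after its values were seen. Other members are given by log2 differences to account for the whole list. An item of the erythroid list is not reported here and was left out of its sums. The members and lists were chosen with earlier results of these data known. The methods text describes pairs of bones and the labels name none. Deviations from site means were correlated between calvaria and tibia libraries over 12305 genes. For assumed pairs r was 0.187 (G1 with G2), 0.269 (G3 with G4) and 0.435 (T1 with T2). G1 with G4 and G3 with G2, not assumed to be pairs, were also positive, at 0.083 and 0.054. Libraries of unlike letter ran from -0.335 to -0.199. In mouse the check is uninformative. P-values set each tested difference against the spread between these libraries, estimated jointly over all genes tested. The main fits had no block for pairs, and each mouse library pools 3 animals. Python 3.11.15, pandas 2.3.3, numpy 2.4.6 and matplotlib 3.10.9 were used.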

Additional observations from a re-analysis of the deposited data

Results flagged for a closer look

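The site difference (log2 of calvaria over tibia) was larger in macaque than in mouse for 13 of the 44 genes by the edgeR interaction test (false discovery rate below 0.2), and it was this difference between the species that singled them out. Among the genes with values in every library, the excess of macaque over mouse was 1.77 for PCNA (edgeR adjusted p = 0.0132), 1.72 for MKI67 (edgeR adjusted p = 0.147) and 1.30 for TOP2A (edgeR adjusted p = 0.195). It was 1.86 for MCM4 (edgeR adjusted p = 0.0689), 1.49 for CENPF (edgeR adjusted p = 0.161) and 1.54 for CDC6 (edgeR adjusted p = 0.163). Of these 6 genes PCNA alone had opposite signs in the 2 species, at -0.50 in mouse and 1.25 in macaque. In mouse the values of the other 5 changed sign between the fits without M4 and without M8.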

How the results depend on the processing

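The mouse count was 0 under all 12 settings that kept every library, and between 0 and 41 when a library was left out (41 without M4, where 7470 of 21689 symbols were called). The macaque count lay between 31 (printed symbols only) and 39 under 15 settings and between 33 and 37 with a library left out. With a replicate block for the assumed pairs it was 39, adding POLA1 (edgeR adjusted p = 0.142) and CDK1 (edgeR adjusted p = 0.0605). With the letter G or T of the macaque labels as the covariate instead, 39 genes were likewise called higher in calvaria. In mouse the block left the count at 0. With a library left out, the median log2 difference ran from -0.19 to 0.76 in mouse and from 1.39 to 1.83 in macaque. The interaction count was 2 at a false discovery rate under 0.05, 15 in DESeq2, and 1 to 33 with a library left out. In rat 4 genes passed a log2 ratio of 1, as did 6072 of 19234 symbols in either direction, and TMM factors gave a median of 0.889.

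Among the medians and the genes given in every library, the reversals were in mouse. Over all members, 1 macaque gene changed sign without G4 and 1 without T1, and in mouse 5 did with library sizes, 4 without M7 and 29 without M8. RRM2 was at -0.00058 with RLE factors, -0.091 with library sizes, -0.00055 in DESeq2 and -0.12 with the replicate block, and CDK1 was at -0.063 with library sizes. With a library left out, RRM2 ran from -0.75 to 0.48, CDK1 from -0.14 to 0.19, MKI67 from -0.51 to 1.01, TOP2A from -0.14 to 1.15, MCM4 from -0.58 to 0.56, CENPF from -0.23 to 0.88 and CDC6 from -0.20 to 1.07. Of 392 values under alternatives, 346 were judged the same as in the main fit. For a gene this meant the same direction and the same side of the threshold. Counts of called genes were judged by their closeness to the main count. The mouse and macaque medians were judged by whether they moved less than the spread between libraries within a site. The cause of the changes was not tested. Low counts limit macaque CDT1, CENPA, GINS1, MCM2, POLE and TK1.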
